A study of Mus musculus with 12 samples.

Results

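The proteins described here copy, transcribe, process and translate mitochondrial DNA, and all of them are encoded by nuclear genes. The list held 40 such genes: 5 for replication, 5 for transcription, 19 for RNA processing and 11 for translation. A gene was measured if a probe set, the group of short probes that reads a transcript, carried its symbol and no other in the platform annotation, and its brightest probe set over the 12 arrays stood for it. By that rule 39 of the 40 genes were measured, out of 18193 named genes on the array, through 74 probe sets, and 23 of the 39 had more than 1 probe set. Mtrf1, a mitochondrial release factor, had no probe set of its own. Mterf1 was measured by a probe set named Mterf1a, which has a near-identical copy in the mouse genome, so its signal is uncertain. No filter on low values was applied, and all 39 measured members lay at or above the median brightness of the array, an intensity of 78.9.

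RNA came from mouse embryonic fibroblasts lacking TSC2 (TSC2-/-), a brake on the growth kinase mTOR. Every group carried this deletion, no TSC2 wild-type cells are among the samples, and all cells grew in DMEM containing 10% CCS. In the first experiment, 3 samples received 20 nM rapamycin, an mTOR inhibitor, for 14 h and 3 received the vehicle DMSO for 14 h. In the second, confluent cells were infected for 10 h with adenovirus carrying PGC-1alpha (3 samples) or GFP (3 samples), then given fresh medium and harvested 14 h later. Per its title, the study asked how mTOR controls the expression of mitochondrial genes by way of YY1 together with PGC-1alpha. The values are RMA intensities (background-corrected, quantile-normalized and summarised per probe set), normalized by the authors separately for each experiment, so levels were compared only within an experiment.

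Replicate arrays correlated closely (r of at least 0.997 between any pair within a group, over log2 values of all probe sets). Ppargc1a, the gene for PGC-1alpha, averaged 2344 ± 190.6 on PGC-1alpha arrays and 87.8 ± 11.8 on GFP arrays (SD, n = 3 each), a 26.8-fold difference that matches the labels. The brightest Tsc2 probe set read 182 to 278 over the arrays, which checks nothing here because no TSC2 wild-type cells are included. All 8 fibroblast markers lay above the array medians (194 to 14030), as did 1 of 2 epithelial markers, with Epcam at 633 to 831. The same held for 1 of 4 macrophage markers, 1 of 3 endothelial, 1 of 3 skeletal muscle and 0 of 2 fat markers. In cultures such as these, fewer cells making a transcript and less transcript per cell cannot be told apart.

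Mitochondria keep a small genome that encodes core subunits of the respiratory chain together with the ribosomal and transfer RNAs needed to translate them. The polymerase gamma holoenzyme, the helicase Twinkle and the single-strand binding protein Ssbp1 copy it. Tfam, Tfb2m and the RNA polymerase Polrmt transcribe it into long precursors, which are cut at their tRNAs, modified, stabilised or degraded, and read by a dedicated ribosome with its own initiation, elongation and release factors. PGC-1alpha is a coactivator known for raising nuclear genes of mitochondria through DNA-binding partners such as the nuclear respiratory factors NRF1 and GABP, the ERR receptors and YY1.

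Start-site sequences are shown for the 7 members that passed the test in the PGC-1alpha experiment, 6 higher and 1 lower, since the factors named above act on promoters. Each sequence is RefSeq's (build GRCm38.p6), runs 5′ to 3′ along the gene from 100 bases before to 50 bases after the annotated start, and has in capitals any match to 5 short motifs on either strand: GCGCANGCG for NRF1, AAGATGGCG for YY1, CCGGAAG for ETS proteins such as GABP, AAGGTCA for ERR and CACGTG, the E-box. The motifs do not overlap in the stretches shown.
Fastkd1, chr2:69712557-69712706, minus strand: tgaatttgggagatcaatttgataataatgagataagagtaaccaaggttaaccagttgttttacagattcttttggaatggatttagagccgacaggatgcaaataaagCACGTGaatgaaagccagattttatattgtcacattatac
Gfm1, chr3:67430015-67430164, plus strand: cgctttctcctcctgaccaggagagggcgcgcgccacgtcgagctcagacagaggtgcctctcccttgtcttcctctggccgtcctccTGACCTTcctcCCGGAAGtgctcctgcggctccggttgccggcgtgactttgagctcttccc
Tufm, chr7:126487255-126487404, plus strand: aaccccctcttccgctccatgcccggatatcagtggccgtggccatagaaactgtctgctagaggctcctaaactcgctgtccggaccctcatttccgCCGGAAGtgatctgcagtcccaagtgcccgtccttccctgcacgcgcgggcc
Supv3l1, chr10:62449689-62449838, minus strand: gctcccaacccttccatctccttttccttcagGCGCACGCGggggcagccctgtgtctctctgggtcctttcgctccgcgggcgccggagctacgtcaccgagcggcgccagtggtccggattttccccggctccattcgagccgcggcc
Mto1, chr9:78448110-78448259, plus strand: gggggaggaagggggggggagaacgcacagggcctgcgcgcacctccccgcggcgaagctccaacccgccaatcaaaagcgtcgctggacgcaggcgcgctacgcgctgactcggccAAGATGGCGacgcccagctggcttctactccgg
Pnpt1, chr11:29130644-29130793, plus strand: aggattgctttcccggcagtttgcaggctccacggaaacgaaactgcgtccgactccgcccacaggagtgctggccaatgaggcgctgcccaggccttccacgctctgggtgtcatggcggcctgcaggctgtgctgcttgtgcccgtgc
Tfb2m, chr1:179546227-179546376, minus strand: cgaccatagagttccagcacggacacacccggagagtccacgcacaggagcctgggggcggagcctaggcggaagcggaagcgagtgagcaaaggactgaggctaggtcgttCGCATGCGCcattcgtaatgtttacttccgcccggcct
Gfm1 and Tufm carry the ETS letters at their starts, Gfm1 the ERR letters on the opposite strand just before them, and Mto1 the YY1 letters just inside the gene. Supv3l1 has the NRF1 letters upstream, Tfb2m has them on the opposite strand just inside the gene, Fastkd1 has only an E-box, and Pnpt1 has no match. A match is a description of the letters and not a binding site.

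With rapamycin, 24 of the 39 measured members fell (61.5%), 1 rose and 14 did not pass the test. The falls were modest, at most 1.71-fold, and ran from DNA topology to ribosome recycling. They took in all 5 factors of RNA stability and decay, 5 of 6 members of the FASTK family of RNA-binding proteins and all 3 elongation factors. The core transcription and replication enzymes Polrmt, Polg and Twnk and the single-strand binding protein Ssbp1 did not pass at their brightest probe sets. A second Polrmt probe set did fall (log2 change -0.37, adjusted p = 0.00017). Among all named genes 18% fell (3275) and 11.3% rose (2061), and among the genes at or above the median brightness, where all members lay, 26.1% fell. The test was limma's moderated test on log2 intensity, adjusted by Benjamini-Hochberg over all 45037 probe sets with a threshold of 0.05. The median log2 change was -0.24 over the members and -0.01 over all named genes, and 34 of the 39 members had a change below 0. The rapamycin and vehicle arrays did not overlap, with rapamycin lower, for 26 members (66.7%) and for 24.6% of all named genes. Of the 24 falls, Mtif2, Mtpap and Trmt5 lost their call when single arrays were left out. This was so for Mtif2 without rapamycin replicate 3, vehicle replicate 1 or vehicle replicate 2, for Mtpap without rapamycin replicate 2, vehicle replicate 1 or vehicle replicate 2, and for Trmt5 without rapamycin replicate 1, rapamycin replicate 3, vehicle replicate 2 or vehicle replicate 3. Between 21 and 24 falls were called in these fits.

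**Figure D1:**
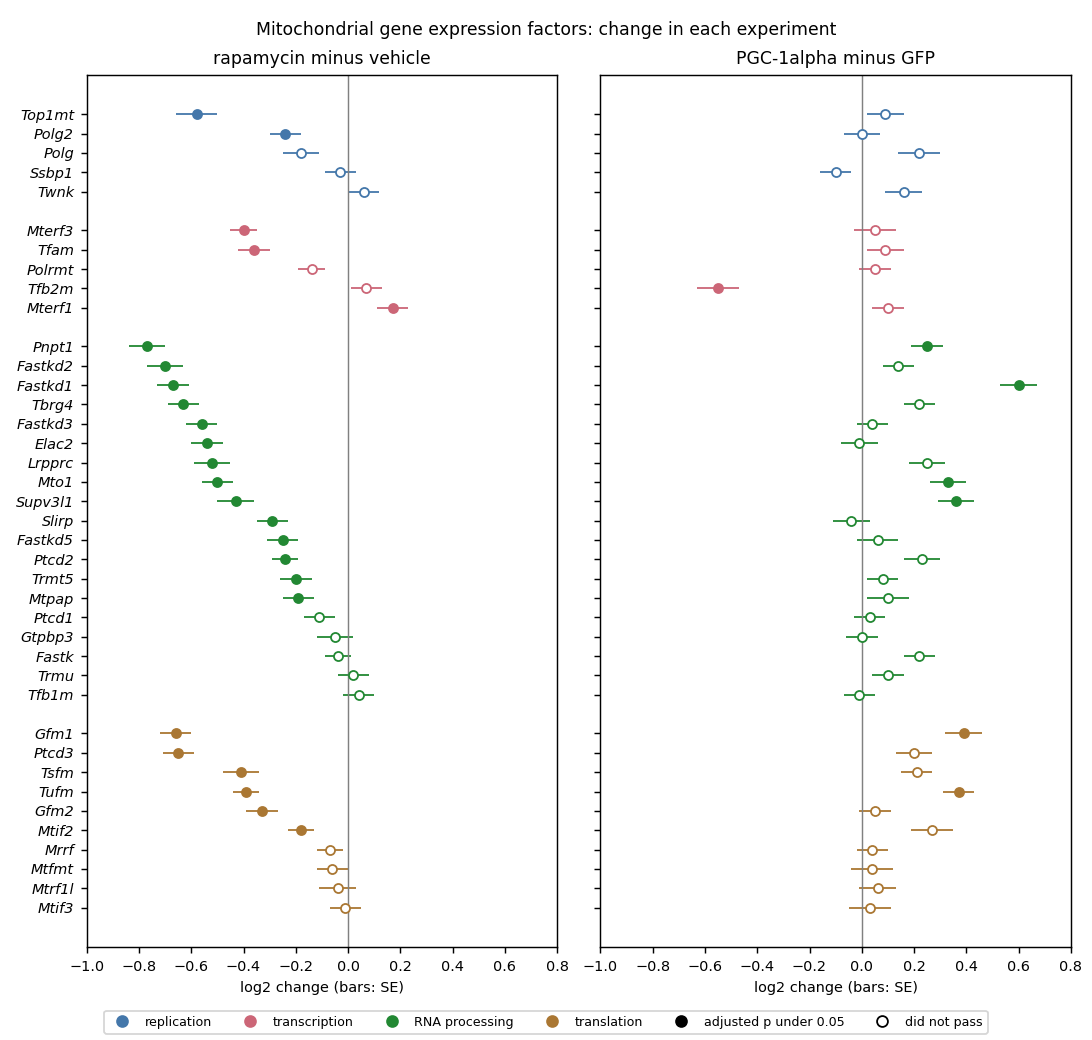
Log2 change of each of the 39 measured members (points, with the standard error as bars) for rapamycin minus vehicle on the left and PGC-1alpha minus GFP on the right, 3 arrays per group. Genes run down the page by role and then by rapamycin change; filled points passed the test. On the left 24 filled points lie below 0 and 1 above it; on the right 6 lie above 0 and 1, Tfb2m, below it.

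Of the 5 replication factors 2 fell with rapamycin. Top1mt, the topoisomerase that relaxes mitochondrial DNA, had intensities of 107, 112 and 110.2 with rapamycin, against 185, 146 and 164 with vehicle. All rapamycin arrays lay below all vehicle arrays, and the fall was 1.5-fold (log2 change -0.58, SE 0.08, adjusted p = 7.7e-05). Polg2, the accessory subunit of the polymerase that holds it on the template, read 183, 176 and 189 with rapamycin and 221, 223 and 203 with vehicle, again without overlap (log2 change -0.24, SE 0.06, adjusted p = 0.008). Its partner Polg, the catalytic subunit, had a log2 change of -0.18 (SE 0.07, adjusted p = 0.078) and overlapping arrays. Twnk, the helicase, and Ssbp1, which coats single-stranded DNA, had log2 changes of 0.06 (SE 0.06) and -0.03 (SE 0.06), with adjusted p = 0.509 for Twnk and adjusted p = 0.813 for Ssbp1.

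Of the 5 transcription factors 2 fell and 1 rose. Tfam, which packages mitochondrial DNA and bends its promoters, read 433, 462 and 433 with rapamycin and 582, 586 and 535 with vehicle. The groups lay well apart, and the fall was 1.28-fold (log2 change -0.36, SE 0.06, adjusted p = 0.00044); a dimmer Tfam probe set also fell, by 0.27 on the log2 scale (adjusted p = 0.015). Mterf3, known in mice as a brake on mitochondrial transcription, read 401, 403 and 392 with rapamycin and 508, 536 and 534 with vehicle, a tight pair of groups (log2 change -0.40, SE 0.05, adjusted p = 8.1e-05). Mterf1, a transcription termination factor, read 95.6, 88.7 and 86.3 with rapamycin and 78.1, 79.4 and 82.1 with vehicle and rose by a log2 change of 0.17 (SE 0.06, adjusted p = 0.040), a direction that flips to -0.01 when arrays are scaled to the hybridization spikes. That call was also lost without rapamycin replicate 1 or any single vehicle array. Polrmt, the RNA polymerase itself, had a log2 change of -0.14 (SE 0.05, adjusted p = 0.075) at its brightest probe set, while its other probe set fell by 0.37 on the log2 scale (SE 0.05, adjusted p = 0.00017). Tfb2m, the factor that melts promoters for Polrmt, read 538, 567 and 520.2 with rapamycin and 509, 544 and 494 with vehicle, overlapping groups with a log2 change of 0.07 (adjusted p = 0.442).

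All 5 factors of RNA stability and decay fell. The largest fall of any member was that of Pnpt1, the exoribonuclease of the mitochondrial degradosome, which read 153, 177 and 177 with rapamycin and 295, 306 and 266 with vehicle. The highest rapamycin array lay far below the lowest vehicle array, and the fall was 1.71-fold (log2 change -0.77, SE 0.07, adjusted p = 5e-06). Supv3l1, the helicase that works with Pnpt1, read 418, 518 and 484 with rapamycin and 632, 650.1 and 619 with vehicle, lower in every array (log2 change -0.43, SE 0.07, adjusted p = 0.00061). A second Supv3l1 probe set, at a mean intensity of 300.1, had a log2 change of -0.05 (SE 0.06, adjusted p = 0.614). Lrpprc, which stabilises mitochondrial mRNAs, read 414, 494 and 429 with rapamycin and 656, 650.1 and 611 with vehicle. It too fell without overlap, 1.44-fold (log2 change -0.52, SE 0.07, adjusted p = 8.1e-05). Its binding partner Slirp read 877, 982 and 986 with rapamycin and 1180.4, 1169 and 1116 with vehicle (log2 change -0.29, SE 0.06, adjusted p = 0.003). Mtpap, which adds the poly(A) tails, read 481, 452 and 488 with rapamycin and 545, 561 and 518 with vehicle, a small fall without overlap (log2 change -0.19, SE 0.06, adjusted p = 0.025).

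Of the 6 FASTK family genes 5 fell. Fastkd2, which binds the large ribosomal RNA, read 144, 171 and 162 with rapamycin and 253, 268 and 255 with vehicle, a 1.63-fold fall (log2 change -0.70, SE 0.07, adjusted p = 5.6e-06). Fastkd1, tied to the levels of particular mitochondrial mRNAs, read 98.3, 99.1 and 105 with rapamycin and 172, 152 and 157 with vehicle, a 1.59-fold fall (log2 change -0.67, SE 0.06, adjusted p = 4e-06). For both genes every rapamycin array was below every vehicle array. Tbrg4, also called FASTKD4, stabilises several mitochondrial mRNAs, and read 469.7, 496 and 477 with rapamycin and 709, 752 and 775 with vehicle (log2 change -0.63, SE 0.06, adjusted p = 3.6e-06). Fastkd3, linked to translation of mitochondrial mRNAs, read 215, 223 and 201 with rapamycin and 311, 318 and 311 with vehicle (log2 change -0.56, SE 0.06, adjusted p = 9.3e-06). Neither pair of groups overlapped. Fastkd5, needed to process transcripts that are not flanked by tRNAs, read 359, 362 and 363 with rapamycin and 433, 454 and 404 with vehicle, the smallest fall of the family (log2 change -0.25, SE 0.06, adjusted p = 0.005). Fastk, the founding member, overlapped between groups (log2 change -0.04, SE 0.05, adjusted p = 0.653).

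Of the 5 tRNA factors 3 fell. Elac2, the nuclease that trims tRNA trailers, read 266, 284 and 294 with rapamycin and 407, 399 and 422 with vehicle, a 1.45-fold fall (log2 change -0.54, SE 0.06, adjusted p = 1.4e-05). Mto1, which modifies the wobble uridine of mitochondrial tRNAs, read 281, 298 and 284 with rapamycin and 403, 426 and 395 with vehicle, a 1.42-fold fall (log2 change -0.50, SE 0.06, adjusted p = 1.8e-05). In both, the groups were far apart relative to their spread. Trmt5, a tRNA guanosine methyltransferase, read 175, 194 and 182 with rapamycin and 205, 215 and 215 with vehicle (log2 change -0.20, SE 0.06, adjusted p = 0.019). Gtpbp3, the partner of Mto1 in the same modification, had a log2 change of -0.05 (SE 0.07, adjusted p = 0.693), and Trmu, which adds sulphur to the wobble uridine, one of 0.02 (SE 0.06, adjusted p = 0.867). The remaining RNA factors were Ptcd2, a pentatricopeptide repeat (PPR) protein of mRNA processing, Ptcd1, another PPR protein, and Tfb1m, which methylates the small ribosomal RNA. Ptcd2 fell, reading 364, 373 and 368 with rapamycin and 423, 447 and 435 with vehicle (log2 change -0.24, SE 0.05, adjusted p = 0.004), while Ptcd1 had a log2 change of -0.11 (adjusted p = 0.229) and Tfb1m one of 0.04 (adjusted p = 0.749).

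Of the 10 measured translation factors 6 fell, and all 10 had a log2 change below 0. Gfm1, the mitochondrial elongation factor G that moves the ribosome along the mRNA, read 517, 546 and 548 with rapamycin and 878, 879.7 and 794 with vehicle, a 1.58-fold fall (log2 change -0.66, SE 0.06, adjusted p = 3.7e-06). Tufm, the elongation factor Tu that delivers tRNAs, read 480.1, 511 and 476 with rapamycin and 624, 643 and 658 with vehicle, a 1.31-fold fall (log2 change -0.39, SE 0.05, adjusted p = 0.00013). Tsfm, which recharges Tufm, read 344, 405 and 351 with rapamycin and 505, 481 and 470.4 with vehicle (log2 change -0.41, SE 0.07, adjusted p = 0.00051). All 3 elongation factors were thus lower in every rapamycin array than in any vehicle array. Ptcd3, a PPR protein of the small ribosomal subunit, read 527, 602 and 536 with rapamycin and 841, 911 and 856 with vehicle, a 1.57-fold fall (log2 change -0.65, SE 0.06, adjusted p = 7.6e-06). Gfm2, which works in ribosome recycling, read 196, 213 and 185 with rapamycin and 255, 252 and 238 with vehicle (log2 change -0.33, SE 0.06, adjusted p = 0.001). A dimmer Gfm2 probe set, at a mean intensity of 73.4, had a log2 change of 0.02 (adjusted p = 0.909). Mtif2, an initiation factor, read 169.7, 167 and 165 with rapamycin and 193, 194 and 180.2 with vehicle, the smallest fall of all (log2 change -0.18, SE 0.05, adjusted p = 0.030). Mtif3 and Mtfmt, which act in initiation, the recycling factor Mrrf and the release factor Mtrf1l had log2 changes of -0.07 to -0.01. Their SEs were 0.05 to 0.07, and none was past the threshold.

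With PGC-1alpha, 6 of the 39 members rose (15.4%), 1 fell and 32 did not pass. The genes that rose were Fastkd1, Gfm1, Tufm, Supv3l1, Mto1 and Pnpt1, that is, 4 of the 19 RNA processing and 2 of the 10 translation factors. The classic transcription factor Tfam did not pass, none of the 5 replication factors did, and Tfb2m fell. Among all named genes 1.41% rose and 0.594% fell, and 2.14% of those at or above the median brightness rose. The median log2 change was 0.09 over the members and 0.01 over all named genes, and 32 of the 39 members had a change above 0. PGC-1alpha and GFP arrays did not overlap, with PGC-1alpha higher, for 16 members (41%) and for 10.1% of all named genes. The count of rises turned on single arrays: it was 2 without GFP replicate 1, 1 without GFP replicate 2, 12 without GFP replicate 3, 2 without PGC-1alpha replicate 1 and 1 without PGC-1alpha replicate 2 or PGC-1alpha replicate 3. The median change was 0.15 without GFP replicate 3 and 0.06 without GFP replicate 1. GFP replicate 3 was the highest of the GFP arrays for 32 of the 39 members (82.1%), and for 46.9% of all named genes.

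Fastkd1 showed the largest rise. It read 257, 259 and 234 with PGC-1alpha and 153, 158 and 182 with GFP, without overlap and 1.52-fold higher (log2 change 0.60, SE 0.07, adjusted p = 0.002). The call held in every fit that left out 1 array, but a second Fastkd1 probe set, at a mean intensity of 125.4, had a log2 change of -0.05 (SE 0.07, adjusted p = 0.884) with PGC-1alpha and of -0.07 (SE 0.05, adjusted p = 0.372) with rapamycin. Gfm1 read 1037, 1014 and 991 with PGC-1alpha and 796, 699 and 834 with GFP, a 1.31-fold rise (log2 change 0.39, SE 0.07, adjusted p = 0.015). Tufm read 667, 702 and 685 with PGC-1alpha and 513, 514 and 565 with GFP, a 1.29-fold rise (log2 change 0.37, SE 0.06, adjusted p = 0.009). Both elongation factors were higher in every PGC-1alpha array, and a second probe set of Tufm also rose, by a log2 change of 0.34 (adjusted p = 0.046), whereas that of Gfm1 had one of 0.21 (adjusted p = 0.203). The remaining Tufm probe sets, both dim, had log2 changes of 0.13 (adjusted p = 0.481) and 0.05 (adjusted p = 0.906). With rapamycin these dim probe sets had log2 changes of -0.07 and -0.12, neither past the threshold. Supv3l1 read 628, 634 and 611 with PGC-1alpha and 479.7, 452 and 534 with GFP (log2 change 0.36, SE 0.07, adjusted p = 0.019), and Mto1 457, 443 and 485 with PGC-1alpha and 362, 338 and 400.0 with GFP (log2 change 0.33, SE 0.07, adjusted p = 0.033). Neither overlapped, though a second Supv3l1 probe set had a log2 change of 0.01 (adjusted p = 0.988). Pnpt1 read 283, 275 and 282 with PGC-1alpha and 234, 227 and 246 with GFP, also without overlap, and lay at the threshold (log2 change 0.25, SE 0.06, adjusted p = 0.0496).

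Tfb2m was the only member to fall with PGC-1alpha. It read 423, 401 and 377 with PGC-1alpha and 561, 531 and 668 with GFP, so that every PGC-1alpha array lay below every GFP array, 1.46-fold lower (log2 change -0.55, SE 0.08, adjusted p = 0.006). The call held in every fit that left out 1 array and was lost when arrays were scaled to the hybridization spikes; Tfb2m has a single probe set. Its promoter, shown above, has the NRF1 letters just inside the gene. The other transcription factors had log2 changes of 0.05 to 0.10. Tfam read 588, 564 and 590.3 with PGC-1alpha and 549, 493 and 596 with GFP, overlapping groups with a log2 change of 0.09 (SE 0.07, adjusted p = 0.728).

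**Figure D2:**
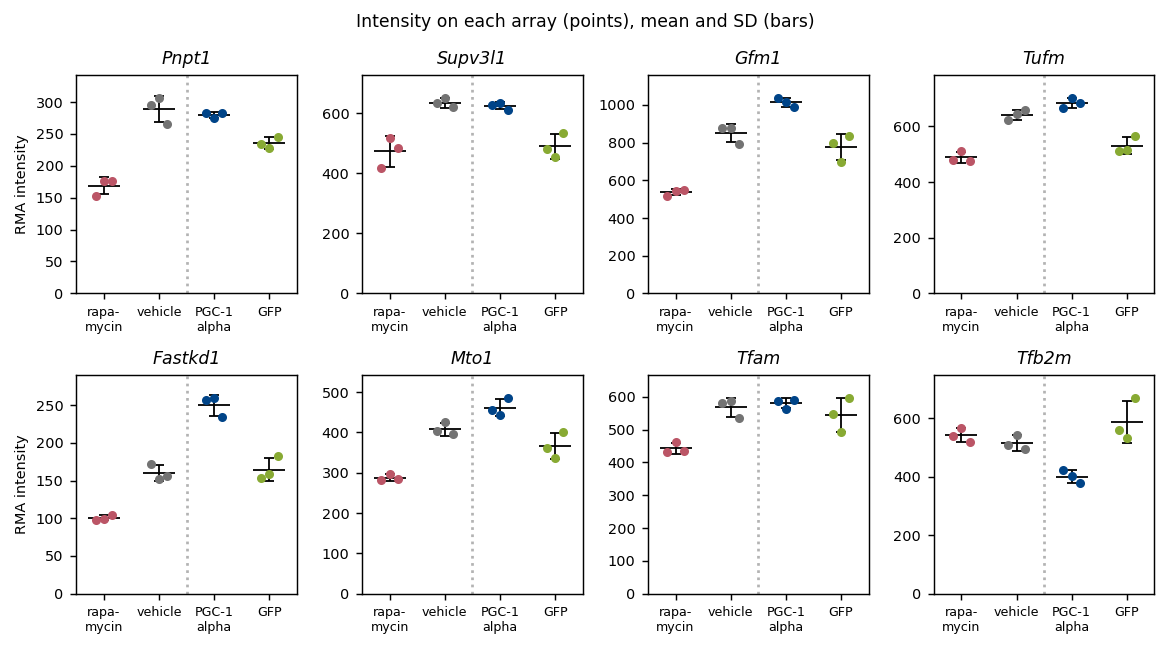
RMA intensity on every array for 8 members (points), with the group mean and SD (black bars, n = 3), in the order rapamycin, vehicle, PGC-1alpha, GFP; the dotted line separates the experiments, which were normalized apart, and each vertical axis starts at 0. The first 6 genes are lower with rapamycin than vehicle and higher with PGC-1alpha than GFP with no overlap; Tfam is lower with rapamycin and overlaps between PGC-1alpha and GFP, and Tfb2m is lower with PGC-1alpha.

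The 32 members that did not pass with PGC-1alpha had log2 changes between -0.10 and 0.27, and 10 of them had an unadjusted p under 0.05. The largest of these changes were those of Mtif2 (log2 change 0.27, SE 0.08, adjusted p = 0.142), Lrpprc (0.25, SE 0.07, adjusted p = 0.091), Ptcd2 (0.23, SE 0.07, adjusted p = 0.126), Tbrg4 (0.22, SE 0.06, adjusted p = 0.097), Fastk (0.22, SE 0.06, adjusted p = 0.091), Polg (0.22, SE 0.08, adjusted p = 0.263), Tsfm (0.21, SE 0.06, adjusted p = 0.133) and Ptcd3 (0.20, SE 0.07, adjusted p = 0.241). Lrpprc, for example, read 662, 628 and 643 with PGC-1alpha and 544, 499.5 and 585 with GFP. Its groups did not overlap, but a GFP spread of 42.6 (SD, n = 3) stood beside a PGC-1alpha spread of 17.3 (SD, n = 3). For Tbrg4, which read 841, 880.2 and 833 with PGC-1alpha and 754, 697 and 744 with GFP, a pair of dimmer probe sets did rise, by log2 changes of 0.29 (adjusted p = 0.032) and 0.36 (adjusted p = 0.0497). Its remaining probe set, at a mean intensity of 676.4, had a log2 change of 0.16 (adjusted p = 0.302). At the other end, Ssbp1, Slirp, Elac2, Tfb1m, Polg2 and Gtpbp3 had log2 changes between -0.10 and 0.00, with SEs of 0.06 to 0.07.

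All 6 members that rose with PGC-1alpha were among the 24 that fell with rapamycin, which is 100% of the 6 and 25% of the 24. With rapamycin 61.5% of the 39 members and 18% of all named genes fell. The overlap was not complete in every setting. Fastk also rose with PGC-1alpha in the fit over 12 arrays, and Fastk and Polg did without GFP replicate 3. Neither Fastk nor Polg passed with rapamycin as reported. Among all named genes, 139 of the 257 that rose with PGC-1alpha fell with rapamycin, which is 54.1% of the 257 and 4.2% of the 3275 that fell. The experiments share no arrays. Across the 39 members the log2 changes correlated at r = -0.52 (Spearman's rho -0.46), and across all 18193 named genes at r = -0.23 (rho -0.22); these describe genes measured on the same arrays and carry no test. The rapamycin change lay below the PGC-1alpha change for 35 of the 39 members and for 9837 of all named genes.

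The difference between the effects, rapamycin minus vehicle less PGC-1alpha minus GFP, was tested as a limma contrast over the 12 arrays. It passed the threshold for 25 members, 24 lower with rapamycin and 1, Tfb2m, higher. Of all named genes, 16.5% passed lower and 7.59% passed higher. The median difference was -0.38 over the members. At the brightest probe sets, the largest was that of Fastkd1 (-1.27, SE 0.10, adjusted p = 5.7e-08), followed by Gfm1 (-1.05, SE 0.09, adjusted p = 2.6e-07) and Pnpt1 (-1.02, SE 0.09, adjusted p = 4e-07). The other Fastkd1 probe set differed by -0.02 (adjusted p = 0.929) and that of Gfm1 by -0.65 (adjusted p = 1.9e-05). For Pnpt1 the other probe sets differed by -0.50 (adjusted p = 5.9e-05) and 0.36 (adjusted p = 0.061). All 6 FASTK family genes passed at their brightest probe sets, including Fastk itself (-0.26, SE 0.08, adjusted p = 0.017), which passed in neither experiment alone. Fastk lost this call without GFP replicate 1 and with quantile normalization over 12 arrays. Fastkd5 (-0.31, SE 0.11, adjusted p = 0.042) kept its call without GFP replicate 3, PGC-1alpha replicate 2 or vehicle replicate 3 and lost it without each of the other 9 arrays. It also lost the call with that normalization and with a pseudocount of 16. Mtpap (-0.29, adjusted p = 0.039) kept its call under 7 of 17 settings and Trmt5 (-0.28, adjusted p = 0.023) under 10 of 17. Polg, also past neither threshold alone, differed by -0.40 (SE 0.11, adjusted p = 0.014) at its brightest probe set. Its other probe sets did not pass, with differences of -0.11 (adjusted p = 0.470) and -0.27 (adjusted p = 0.105). Tfam differed by -0.45 (SE 0.09, adjusted p = 0.002) and Tfb2m by 0.62 (SE 0.11, adjusted p = 0.00025). Slirp and Polg2, which fell with rapamycin, did not pass (-0.25, adjusted p = 0.069 for Slirp and -0.24, adjusted p = 0.086 for Polg2).

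**Figure D3:**
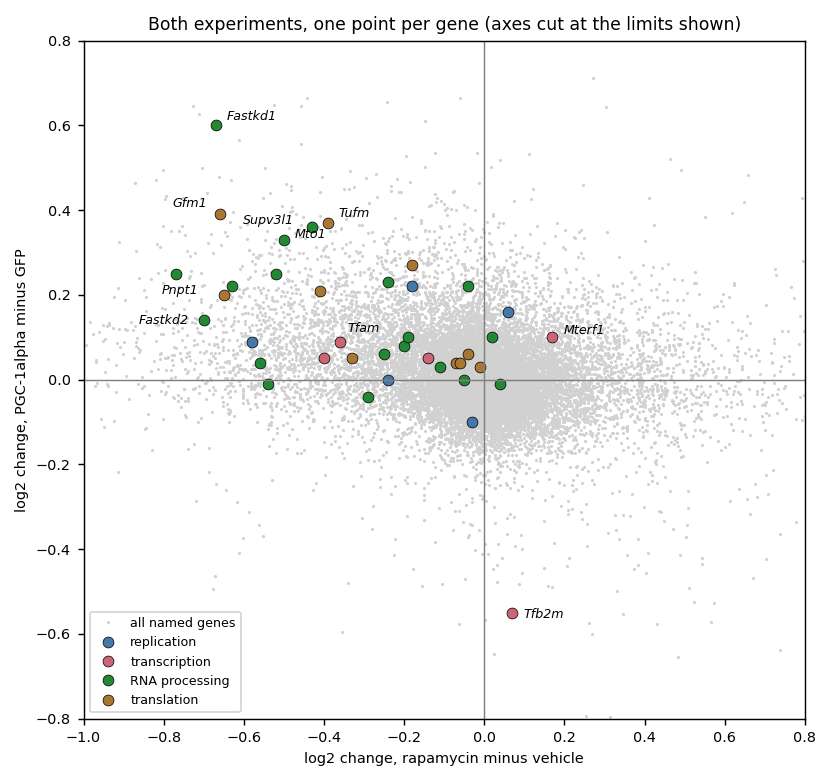
Log2 change with rapamycin (horizontal, minus vehicle) against log2 change with PGC-1alpha (vertical, minus GFP), 1 point per gene, coloured by role for the 39 members and grey for all named genes; genes beyond the axis limits are not drawn. Most members lie left of 0 and above 0, Fastkd1 farthest up at -0.67 and 0.60, while Tfb2m lies alone at 0.07 and -0.55.

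The other probe sets of the members were set against the brightest. Of the 23 members with several, 15 were called with rapamycin, and for 5 of these every probe set was called the same way. No member had probe sets called in opposite directions, and 37 of the 74 probe sets fell and 1 rose. All 4 probe sets of Tbrg4 fell with rapamycin, by 0.62 to 0.72 on the log2 scale. For Pnpt1, a second probe set fell by 0.48 on the log2 scale (adjusted p = 1.6e-05), and a dim one, at a mean intensity of 41.6, had a log2 change of 0.21 (adjusted p = 0.056). A second probe set of Ptcd3 had a log2 change of 0.20 (SE 0.07, adjusted p = 0.057) with rapamycin, beside the fall of its brightest. With PGC-1alpha 9 of the 74 probe sets rose and 1 fell, and no member with several had all of them called. With each gene's median probe set in place of its brightest, 0 of the 39 members rose with PGC-1alpha and Fastkd1 had a log2 change of -0.05. For genes with an even number of probe sets, the one with the lower middle change was taken, a choice that leans toward falls. The Pnpt1 probe set that also fell with rapamycin, at a mean intensity of 162.1, had a log2 change of 0.02 (adjusted p = 0.948) with PGC-1alpha. The dim Pnpt1 probe set had one of -0.15 (adjusted p = 0.640). The other Mto1 probe set had one of 0.04 (adjusted p = 0.909), but its mean intensity of 11.7 is too low to be informative.

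**Figure D4:**
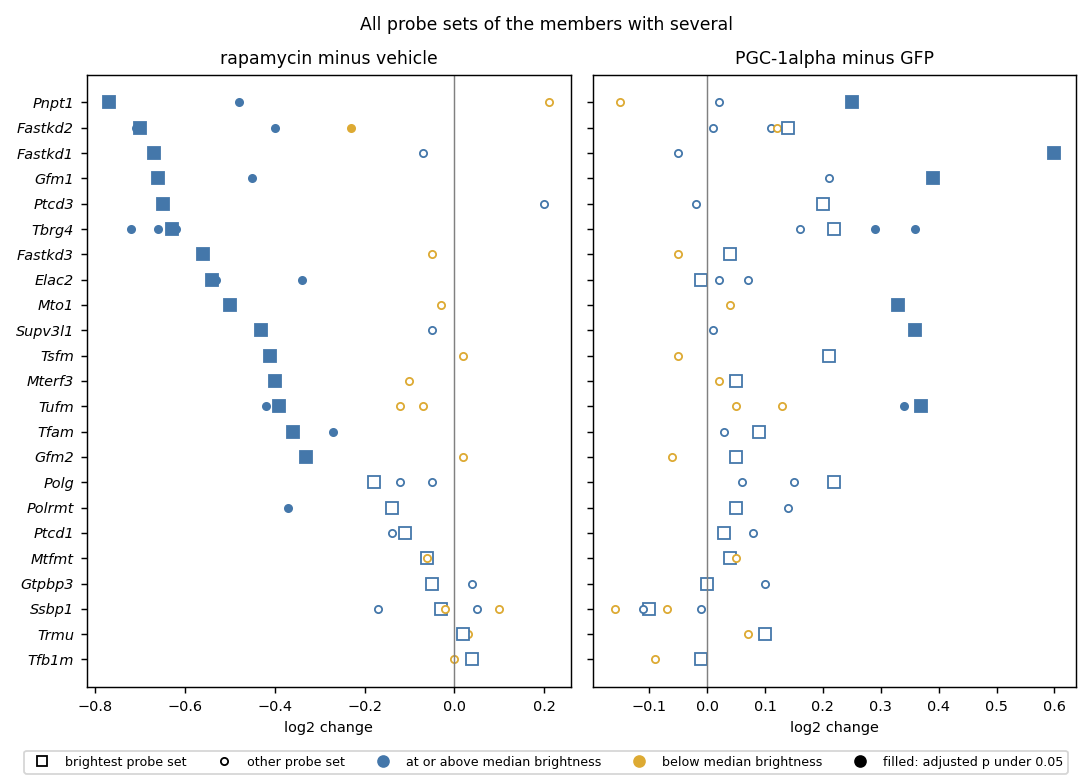
Log2 change of every probe set of the 23 members with more than 1, for rapamycin minus vehicle (left) and PGC-1alpha minus GFP (right); squares mark the brightest probe set, filled symbols passed the test, and blue and yellow separate probe sets above and below the median brightness of 78.9. The horizontal scales differ between the panels. Filled symbols of 1 gene always lie on the same side of 0, and several genes, Fastkd1 and Supv3l1 among them, have a filled square beside an open circle near 0.

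A wider list of 53 other genes of mitochondrial DNA expression, 51 of them measured, was counted beside the members. With rapamycin 18 of the 51 fell (35.3%) and 3 rose, with a median log2 change of -0.14. The largest falls were those of Dna2, a nuclease and helicase (log2 change -0.91, SE 0.07), Atad3a, a membrane protein of the nucleoid (-0.68, SE 0.06), Noa1, a GTPase of ribosome assembly (-0.63, SE 0.08), and Qtrt1, a tRNA-guanine transglycosylase (-0.59, SE 0.06). Tk2 and Dguok, the kinases that supply mitochondrial nucleotides, rose by log2 changes of 0.39 (SE 0.06, adjusted p = 0.00041) and 0.18 (SE 0.05, adjusted p = 0.023). With PGC-1alpha 3 of the 51 rose: Endog, the mitochondrial endonuclease G (log2 change 0.40, SE 0.07, adjusted p = 0.010), Atad3a (0.34, SE 0.07, adjusted p = 0.023) and Qtrt1 (0.31, SE 0.07, adjusted p = 0.042). Of 76 mitochondrial ribosomal protein genes, the partners of the translation factors, 54 fell (71.1%) and 2 rose with rapamycin (median log2 change -0.33). With PGC-1alpha 7 of these 76 rose (9.21%) and 0 fell (median 0.12).

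Promoter windows of 300 bases, from 250 before the start to 50 after, were found for 36 of the 40 members. The ETS letters CCGGAAG occurred in those of 17 members (47.2%) and of 12.9% of 17492 protein-coding genes, and the NRF1 letters GCGCANGCG in 7 members (19.4%) and 9.63% of protein-coding genes. The ERR letters AAGGTCA occurred in 4 members (11.1%) and 4.73% of protein-coding genes, and the E-box CACGTG in 1 member (2.78%) and 8.91%. The ETS letters were present in 10 of the 21 members with a promoter that fell with rapamycin and in 7 of the 14 measured members that did not. These shares are descriptions without a test, and members and protein-coding genes differ in more than their function.

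The YY1 letters AAGATGGCG occurred in 5 members (13.9%) and 2.14% of protein-coding genes. These 5 windows, singled out after their values were seen, belong to genes that all fell with rapamycin, 5 of 21, against 0 of the 14 measured members that did not fall. Of all 39 measured members 61.5% fell, and whether the letters go with the falls was not tested. The 29 bases around each match are shown because YY1 is the factor the study is about; they are printed on the strand that reads AAGATGGCG, which is in capitals, from RefSeq's GRCm38.p6.
Ptcd3, chr6:71908725-71908753, minus strand: gaagagtccaAAGATGGCGgcggcggcgg
Mto1, chr9:78448217-78448245, plus strand: tgactcggccAAGATGGCGacgcccagct
Tbrg4, chr11:6626134-6626162, minus strand: gagcgcaacaAAGATGGCGactgcggaag
Slirp, chr12:87443800-87443828, minus strand and opposite to the gene: cgagatggggAAGATGGCGgctgctgtgg
Ptcd2, chr13:99344790-99344818, plus strand and opposite to the gene: ggtgcgctccAAGATGGCGgctcccatgg
In Ptcd3 and Mto1 the match begins 20 and 18 bases inside the gene. Rapamycin log2 changes of these 5 genes were -0.65 for Ptcd3, -0.63 for Tbrg4, -0.50 for Mto1, -0.29 for Slirp and -0.24 for Ptcd2, and Mto1 was the 1 that also rose with PGC-1alpha. Pnpt1, with the largest fall of all, has neither the YY1 letters nor any other of the motifs in its 300 bases, and binding of YY1 was not measured on these arrays.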

How the data were processed

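Each of 12 Affymetrix MOE430 v2 arrays held 1 sample, and groups and replicate numbers came from the sample labels; the series text calls the 3 samples of a group biological triplicates, and p-values measure only the spread between them. The authors deposited 1 intensity per probe set and array, made with RMA (BioConductor 1.2) in 1 batch for rapamycin and vehicle and another for PGC-1alpha and GFP, per the series design text. No source used here states their scale; they run from 9.299 to 21072 and were read as linear. Quantile normalization, part of RMA's default settings, makes the arrays of a batch alike in distribution, so a shift of total RNA cannot be seen and changes are relative to the array as a whole. Levels of different probe sets were compared only to choose the brightest per gene and to place probe sets by brightness. No detection calls were used.

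Log2 was taken of the deposited intensities without a pseudocount. Without the 64 controls, 45037 probe sets entered limma 3.58.1 (lmFit, eBayes) in R 4.3.3, each comparison on its own 6 arrays, two-sided, with Benjamini-Hochberg adjustment over all of them and a threshold of 0.05. Changes are treated minus control with limma's moderated SE, and "rose" or "fell" is written only past the threshold. As a check of the code only, the fits were run on simulated arrays with independent noise and few changed probe sets, a setting simpler than these data. Of the probe sets, 34945 had 1 gene symbol, 932 several and 9160 none listed. Among those with 1 symbol, 34741 had an Entrez ID that was found in RefSeq's GRCm38.p6 gene table. RefSeq also gave the promoter sequences. Any of the 40 members could be named, with array values for those past the threshold; of other genes, the largest changes of the list were named. The members and lists were chosen with earlier results of these data known. Same-numbered samples deviated from their group means with correlations of -0.052 to 0.072 (rapamycin experiment) and -0.133 to 0.231 (PGC-1alpha experiment). Samples with different numbers ran from -0.14 to 0.149 and from -0.216 to 0.206. The labels state no pairing, so samples were treated as unpaired, but with 3 arrays per group these correlations cannot exclude one. Alternatives were quantile normalization over 12 arrays, scaling to 18 hybridization spike probe sets, a filter on dim probe sets, a pseudocount of 16, a 12-array fit, an intensity trend, a replicate block, other probe set choices and leaving out each array. Tables and figures were made with Python 3.11.15, pandas 2.3.3 and matplotlib 3.10.9.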

Additional observations from a re-analysis of the deposited data

How the results depend on the processing

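Rapamycin's count of fallen members, 24 as reported, lay between 23 and 33 under the other settings and between 21 and 24 with 1 array left out; 21 of its 25 calls were made under all 15 settings. The rise of Mterf1 was less stable: the count of rises was 0 with an intensity trend, 0 with the replicate block, 0 with spike scaling, 2 with quantile normalization over 12 arrays (Mterf1 not among them) and 0 to 1 with 1 array left out, and Mterf1 itself reversed to -0.01 with spike scaling. The median rapamycin change of -0.24 was -0.18 with quantile normalization over 12 arrays, -0.43 with spike scaling and -0.28 to -0.21 with 1 array left out. Spike scaling moved the median of all probe sets by -0.19 (rapamycin), 0.17 (PGC-1alpha) and -0.36 (difference).

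The 6 rises with PGC-1alpha became 10 in the fit over 12 arrays, 0 with the median probe set, and 1 to 12 with 1 array left out; none of the 7 calls held under all 15 settings, though Fastkd1 lost its call only with the median probe set, where it reversed to -0.05, and Tfb2m only with spike scaling, where 0 members fell. The replicate block, fitted although the labels state no pairing, gave 5 rises, without Pnpt1. The median change of 0.09 was 0.26 with spike scaling, 0.04 with the median probe set and 0.06 to 0.15 with 1 array left out. For genes with an even number of probe sets, the median probe set was the one with the lower middle change. That choice leans toward falls, so losses of rises under it come partly from the rule. Of the differences, 20 of 25 calls held under all 17 settings; the count past the threshold and higher with rapamycin was 0 with spike scaling, and the count past it and lower was 21 to 35 under the other settings (20 to 26 with 1 array left out). With 3 arrays per group, small changes of dim probe sets could be missed, and why calls moved was not tested.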
